A study of Neurospora crassa with 12 samples.

Results

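The first step of conidial germination in Neurospora crassa on potato dextrose agar (PDA), from fresh conidia to the first polar growth, was described with 6 of the 12 libraries, 3 collected at 120 min and 3 at 15 min. The libraries were chosen by their stage labels alone, and all 10592 genes of the count table were eligible. Of these, 8118 had enough counts to be tested. The 120 min libraries came from plates on which most active spores showed the first sign of polar growth, and the 15 min libraries from spores that had just been placed on the medium. Both groups were macroconidia of the mat A strain FGSC2489, harvested from cultures on Bird medium, spread on cellophane over PDA, and kept, per the labels, at 25°C under continuous white light. A replicate was all tissue from several plates of 1 collection, so that p-values measured the spread between collections of 1 strain. A minority of spores at another stage remained on each plate, and in such bulk samples fewer cells of a type and less RNA per cell cannot be told apart. The later stages, at 240 min and 360 min, entered the estimate of the spread and a closing comparison.

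A macroconidium of N. crassa is an airborne asexual spore, coated with a hydrophobin rodlet layer, that carries stored RNA and protein. On a nutrient medium it takes up water, grows evenly in all directions, and then fixes an axis along which a germ tube extends, which requires actin, new wall and membrane, and a shift from stored reserves to sugar of the medium. The proteasome, a barrel-shaped protease with a regulatory cap, degrades proteins tagged with ubiquitin, and the vacuolar ATPase acidifies the vacuole with a soluble sector that splits ATP and a membrane sector that carries protons.

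Libraries held 69471364 to 80635774 counts at 120 min and 60986237 to 69204396 counts at 15 min. A gene with 3 counts in 1 library thus stood at 0.0372 to 0.0492 counts per 1000000 counts of the unscaled total. All levels below are counts per 1000000 counts of the scaled library (CPM). Ribosomal RNA genes, which oligo(dT) selection should deplete, took 2.70 to 3.39% of counts at 120 min and 1.98 to 10.2% at 15 min, where replicate 2 held the most. Libraries of 1 stage resembled each other (Pearson r across tested genes on log2 CPM, 0.990 to 0.992 at 120 min and 0.991 to 0.994 at 15 min), and r between the stages was 0.858 to 0.864. Markers of conidia were checked against the stage labels. Of these, 10 of 11 conidial marker genes were lower at 120 min and none higher, and their summed level was 650.0 to 699.5 CPM at 120 min, against 6819 to 7027 CPM at 15 min. Of 9 markers of sexual tissue, 7 were tested and all 7 were lower, with sums of 109 to 113 CPM at 120 min and 315 to 324 CPM at 15 min, most of it from asd-4, sub-1 and, at 15 min, poi-2 and app. Transcripts of fbm-1 were at 0 in all 120 min libraries, and per-1 stayed under 0.1 CPM throughout. The paper describes poi-2 as highly expressed in conidia as well as in protoperithecia. Of all tested genes, 39.6% were lower at 120 min in the same test against no change. What part sexual tissue had in the results was not tested.

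Most of the transcriptome moved in this interval. Tested against no change, 6713 genes (82.7% of those tested) differed: 3498 (43.1%) were higher at 120 min and 3215 (39.6%) were lower. Tested against a change of at most 2-fold, 3080 genes (37.9%) differed: 1716 (21.1%) were higher and 1364 (16.8%) were lower, and words such as rose and fell are used below for genes past this second test unless the first is named. With upper-quartile scaling, which moved the median log2 fold change of all genes by -0.26, the second split was 1373 higher and 1828 lower, so list medians are given relative to the median of all tested genes (0.04). Large falls outnumbered large rises. Over 16-fold lower were 274 genes and over 16-fold higher 117, and 151 genes with counts in all 3 libraries at 15 min had none at 120 min, against 21 the other way. The most abundant messages were largely shared: of the 100 genes with the most CPM per kb of annotated gene, 86 were in the top 100 at both stages. A share of 50% of messenger counts came from 137 to 146 genes at 120 min and from 169 to 177 genes at 15 min.

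**Figure D1:**
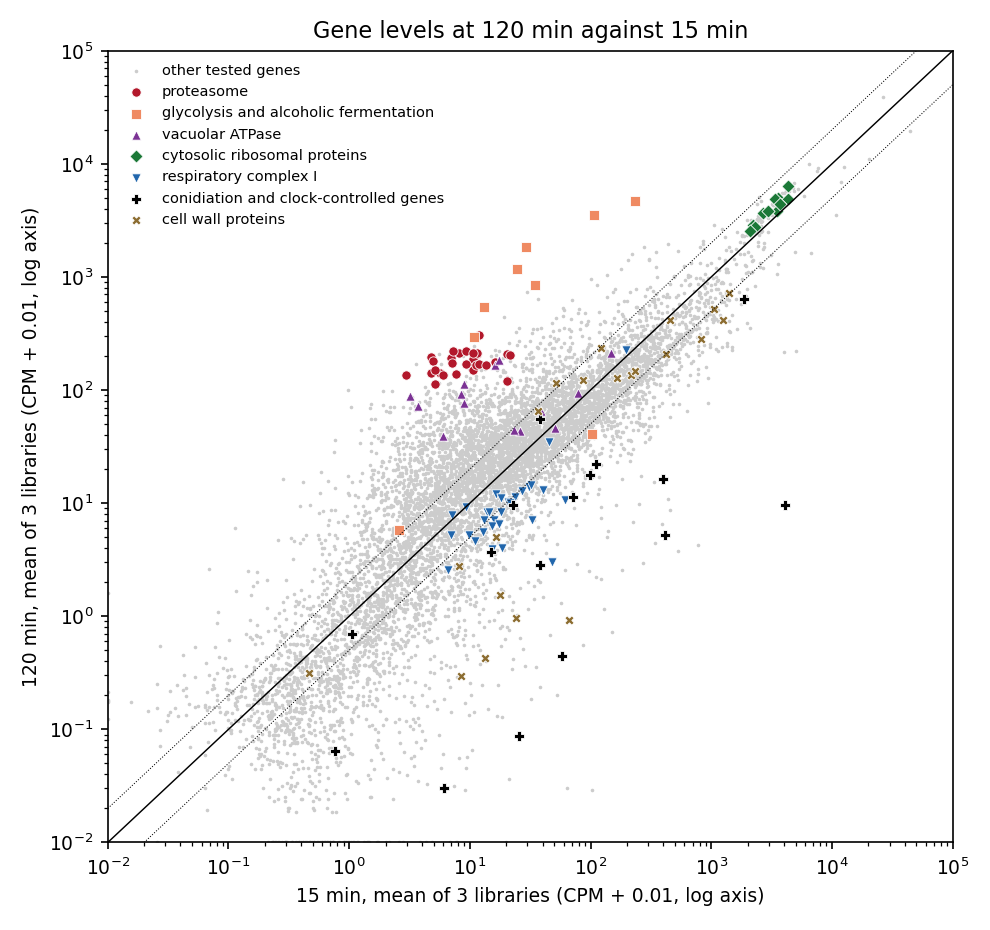
Mean level of each tested gene at 120 min (vertical) against 15 min (horizontal), in CPM with 0.01 added, on log axes. The solid line marks equal levels and the dotted lines a 2-fold difference. All 29 proteasome genes and 7 glycolytic genes lie above the upper dotted line, ribosomal protein genes lie near the line of equal levels, and conidiation genes lie mostly far below it.

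The genes were read through 37 lists of known function, made from the 1118 genes with a symbol. The lists held 785 symbols, of which 762 were tested. Among tested genes with a symbol, 24.0% rose and 17.1% fell, against 20.7% and 16.8% among the 7034 without one.

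**Figure D2:**
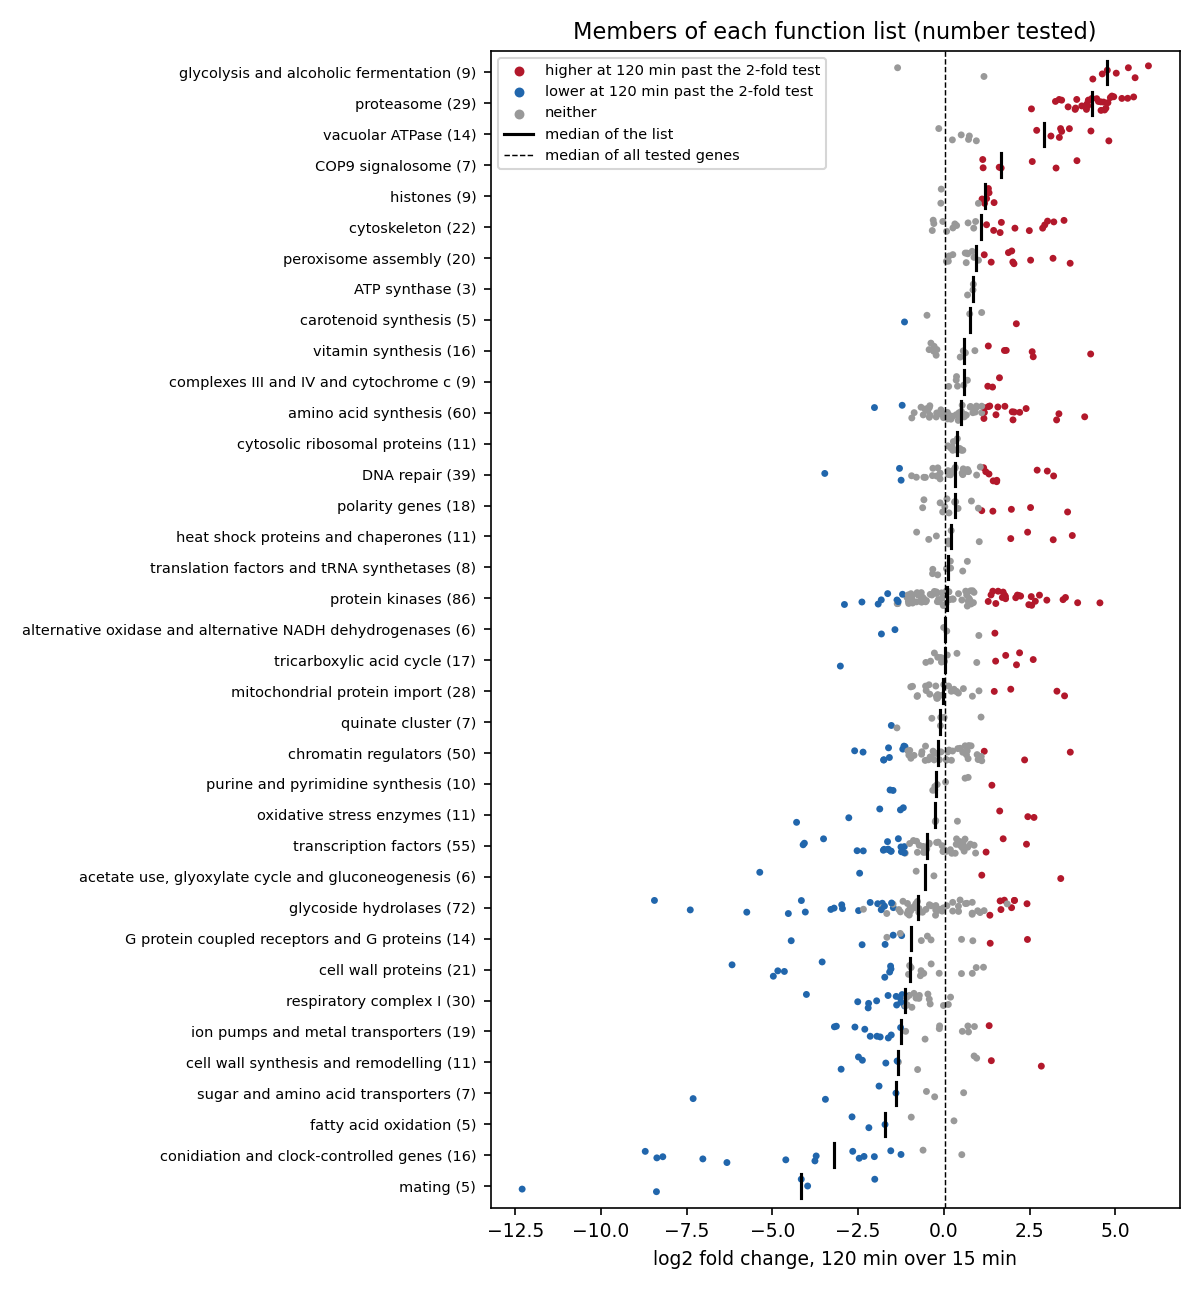
Log2 fold change (120 min over 15 min) of every tested member of each function list, ordered by the list's median (black bar). Red points rose and blue points fell past the 2-fold test, and the dashed line is the median of all tested genes at 0.04. Glycolysis and the proteasome stand at the top, with medians 4.72 and 4.28 above that line, and conidiation and mating genes at the bottom.

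Messages known from the making of spores fell. Of 16 conidiation and clock-controlled genes, 14 fell, against 16.8% of all tested genes. The gene ccg-16 was higher against no change only (log2 fold change 0.52 ± 0.12 SE, adjusted p against no change = 8.89e-04), and acon-3, a regulator of conidiophore development, passed neither test. Together the 16 genes made up 0.0731 to 0.0803% of counts at 120 min, against 0.635 to 0.690% at 15 min. The gene eas (NCU08457, chromosome II, 3570905-3572798) encodes the hydrophobin of the rodlet layer and had 9.12, 8.18 and 11.8 CPM in the 120 min libraries, against 4155, 4034 and 3988 CPM in the 15 min libraries (log2 fold change -8.71 ± 0.54 SE, adjusted p = 8.99e-09). It alone made up most of this share at 15 min. The conidiation gene con-8 had 0.317, 0.255 and 0.744 CPM in the 120 min libraries, against 58.9, 58.7 and 58.1 CPM in the 15 min libraries (log2 fold change -7.03 ± 0.29 SE, adjusted p = 1.44e-10). The clock-controlled gene ccg-1 had 5.03, 4.99 and 5.48 CPM in the 120 min libraries, against 429, 405 and 409.8 CPM in the 15 min libraries (log2 fold change -6.32 ± 0.34 SE, adjusted p = 2.21e-09). The gene con-6 had 13.4, 14.6 and 20.6 CPM in the 120 min libraries, against 401, 392 and 395 CPM in the 15 min libraries (log2 fold change -4.61 ± 0.17 SE, adjusted p = 8.55e-11). For eas, con-8, ccg-1 and con-6, all already past the 2-fold test, all 120 min values lay far below all 15 min values. A smaller fall was that of ccg-6, with 617, 654 and 655 CPM in the 120 min libraries, against 1891, 1841 and 1896 CPM in the 15 min libraries (log2 fold change -1.55 ± 0.06 SE, adjusted p = 8.77e-08). Of ccg-4, 0.106, 0.128 and 0 CPM were left at 120 min, against 26.5, 24.5 and 25.5 CPM at 15 min. The gene con-10 had 2.39, 2.51 and 3.56 CPM at 120 min and 38.9, 38.4 and 37.7 CPM at 15 min (log2 fold change -3.76 ± 0.23 SE, adjusted p = 2.44e-08). The regulator of conidiation fl (fluffy) had 1.56, 1.56 and 1.87 CPM at 120 min and 19.4, 18.8 and 18.6 CPM at 15 min (log2 fold change -3.51 ± 0.17 SE, adjusted p = 3.74e-09).

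Some genes of the light response and clock also fell. The clock gene frq (NCU02265, chromosome VII, 3131640-3136464) had 78.7, 73.9 and 77.6 CPM in the 120 min libraries, against 952, 963 and 889.7 CPM in the 15 min libraries (log2 fold change -3.61 ± 0.06 SE, adjusted p = 4.42e-14). The photolyase gene phr, whose product repairs ultraviolet damage with light, had 125, 127 and 117 CPM at 120 min and 319, 312 and 273 CPM at 15 min (log2 fold change -1.29 ± 0.06 SE, adjusted p = 1.28e-04). The opsin gene nop-1 had 0.181, 0.113 and 0.170 CPM at 120 min and 3.77, 2.82 and 3.68 CPM at 15 min (log2 fold change -4.45 ± 0.31 SE, adjusted p = 8.14e-08). In a group of 12 light and clock genes put together after their values were seen, 9 were lower and 3 higher against no change, and 5 fell over 2-fold. Of all tested genes, 39.6% were lower and 43.1% higher against no change, and 16.8% fell over 2-fold. In this group, the blue-light receptor gene wc-1 had 38.2, 69.5 and 38.6 CPM at 120 min and 197, 111 and 189 CPM at 15 min (log2 fold change -1.76 ± 0.32 SE, adjusted p = 1.09e-02). Replicate 2 of wc-1 was the highest at 120 min and the lowest at 15 min, so its fall was smallest there. Its partner wc-2 was higher against no change only (log2 fold change 0.70 ± 0.06 SE, adjusted p against no change = 8.29e-08). Plates stood in continuous light at both stages, so these values were not a comparison of light with dark.

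Genes of mating were lower at 120 min, and receptor genes went both ways. All 5 tested genes of the mating list fell. The gene poi-2 had 0, 0.0567 and 0 CPM in the 120 min libraries, against 111, 103 and 96.9 CPM in the 15 min libraries, a fall whose size rests on few counts at 120 min. The mating type gene matA-3 had no count in the 3 libraries at 120 min, against 0.660, 0.619 and 0.587 CPM at 15 min, at least 44.3-fold lower with a floor of 3 counts over the group. The pheromone gene mfa-1 had 0.589, 0.879 and 0.978 CPM at 120 min and 3.80, 3.08 and 3.05 CPM at 15 min (log2 fold change -2.01 ± 0.19 SE, adjusted p = 5.99e-05) and pre-1, which encodes a pheromone receptor, 1.51, 1.42 and 1.68 CPM at 120 min and 8.22, 8.04 and 7.83 CPM at 15 min (log2 fold change -2.38 ± 0.13 SE, adjusted p = 7.13e-08). Of 14 tested G protein coupled receptors and G proteins, 5 fell and 2 rose over 2-fold, against 16.8% and 21.1% of all tested genes. The risers were gpr-6, with 10.95, 9.73 and 11.1 CPM at 120 min and 2.22, 1.76 and 1.88 CPM at 15 min, and ric8, a regulator of G alpha proteins, with 23.2, 23.8 and 22.2 CPM at 120 min and 8.63, 9.49 and 8.97 CPM at 15 min.

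Transcription factors fell more often than they rose. Of 55 tested, 17 fell and 3 rose, against backgrounds of 16.8% and 21.1%, and the list's median lay at -0.54 relative to all genes. Expressed as a share, the list held 0.339 to 0.365% of counts at 120 min, against 0.606 to 0.664% at 15 min, with no overlap between the stages. The largest falls were in clr-2, a regulator of cellulase genes, with 0.831, 0.766 and 1.17 CPM at 120 min and 15.6, 16.9 and 15.4 CPM at 15 min (log2 fold change -4.10 ± 0.25 SE, adjusted p = 2.05e-08), and fsd-1, a regulator of female sexual development, with 9.71, 8.18 and 10.9 CPM in the 120 min libraries, against 163, 158 and 162 CPM in the 15 min libraries (log2 fold change -4.07 ± 0.09 SE, adjusted p = 7.67e-13). The carbon catabolite repressor gene cre-1, named after its value was seen, had 75.4, 76.2 and 80.02 CPM at 120 min and 402, 389 and 389 CPM at 15 min (log2 fold change -2.35 ± 0.07 SE, adjusted p = 1.65e-10). The risers were tah-4 (5.12, 5.13 and 4.37 CPM at 120 min and 0.723, 0.977 and 1.05 CPM at 15 min), ff-7 (25.6, 27.7 and 27.8 CPM at 120 min and 8.46, 7.94 and 8.02 CPM at 15 min) and tah-1 (42.4, 38.9 and 39.8 CPM at 120 min and 17.7, 15.99 and 17.9 CPM at 15 min), all under 50 CPM at both stages. The cross-pathway control gene cpc-1, for the activator of amino acid synthesis, had 1264, 1236 and 1101 CPM at 120 min and 2654, 2619 and 2719 CPM at 15 min (log2 fold change -1.15 ± 0.06 SE, adjusted p = 7.07e-03).

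Genes for transport of sugars, amino acids, ions and metals fell more often than they rose. Of 7 sugar and amino acid transporter genes, 4 fell and none rose, against 16.8% and 21.1% of all tested genes. The glucose transporter gene hgt-1 (NCU10021, chromosome VII, 1305454-1307833) had 0.514, 0.539 and 0.587 CPM in the 120 min libraries, against 90.7, 87.2 and 83.8 CPM in the 15 min libraries (log2 fold change -7.31 ± 0.14 SE, adjusted p = 8.13e-14). The gene pmg, a general amino acid permease, had 0.876, 0.496 and 0.809 CPM at 120 min and 7.94, 8.07 and 7.92 CPM at 15 min (log2 fold change -3.45 ± 0.25 SE, adjusted p = 1.99e-07). Of 19 ion pumps and metal transporters, 10 fell and 1, the copper transporter gene tcu-2, rose (6.50, 7.36 and 8.90 CPM at 120 min and 3.19, 2.95 and 2.97 CPM at 15 min), against 16.8% and 21.1% of all tested genes. No gene of this list rose with upper-quartile scaling, with DESeq2, or without replicate 3 at 120 min. The phosphate permease gene pho-4 had 1.39, 1.26 and 1.00 CPM at 120 min and 10.7, 11.3 and 11.3 CPM at 15 min (log2 fold change -3.19 ± 0.17 SE, adjusted p = 1.44e-08). The gene amt had 0.302, 0.156 and 0.587 CPM at 120 min and 3.62, 3.35 and 2.33 CPM at 15 min (log2 fold change -3.13 ± 0.40 SE, adjusted p = 8.71e-05). The plasma membrane proton pump gene pma-1, among the 10 genes with the most CPM per kb at 15 min but not at 120 min, had 3622, 3305 and 3694 CPM in the 120 min libraries, against 10638, 10849 and 11130.4 CPM in the 15 min libraries (log2 fold change -1.62 ± 0.06 SE, adjusted p = 8.84e-08). It carried most of the share of its list, which was 0.369 to 0.392% of counts at 120 min, against 1.03 to 1.12% at 15 min. The stages did not overlap for any gene named here, all of which had already passed the 2-fold test.

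Genes for the wall divided. Of 21 cell wall protein genes, 9 fell and none rose, and of 11 genes for wall synthesis and remodelling, 5 fell and 2 rose. Of all tested genes, 16.8% fell and 21.1% rose. Among wall proteins, ccg-13 had 0.952, 0.950 and 0.861 CPM in the 120 min libraries, against 64.6, 62.8 and 72.4 CPM in the 15 min libraries (log2 fold change -6.18 ± 0.32 SE, adjusted p = 1.74e-09). The gene ncw-6 had 0.287, 0.581 and 0.391 CPM at 120 min and 13.7, 12.1 and 14.04 CPM at 15 min (log2 fold change -4.97 ± 0.38 SE, adjusted p = 1.81e-07). All 4 gel genes, which encode glucanosyltransferases that lengthen beta-1,3-glucan, fell, with log2 fold changes between -2.99 and -1.36. Of these, gel-4 had 46.8, 50.1 and 47.3 CPM in the 120 min libraries, against 258, 261 and 291 CPM in the 15 min libraries (log2 fold change -2.49 ± 0.08 SE, adjusted p = 8.14e-11). The glucan synthase gene do had 498, 431 and 446 CPM at 120 min and 1487, 1493 and 1461 CPM at 15 min (log2 fold change -1.69 ± 0.06 SE, adjusted p = 2.17e-08). Genes of chitin went the other way in part: gfa1, which makes the first dedicated precursor of chitin, had 165, 161 and 169 CPM in the 120 min libraries, against 23.9, 22.8 and 22.4 CPM in the 15 min libraries (log2 fold change 2.84 ± 0.05 SE, adjusted p = 2.89e-13). The chitin synthase gene chs-3 had 50.7, 55.1 and 54.2 CPM at 120 min and 19.4, 21.1 and 20.7 CPM at 15 min (log2 fold change 1.38 ± 0.07 SE, adjusted p = 1.99e-05). Of 5 chitin synthase genes, 3 were higher and 2 lower in the test against no change, where 43.1% and 39.6% of all tested genes were.

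**Figure D3:**
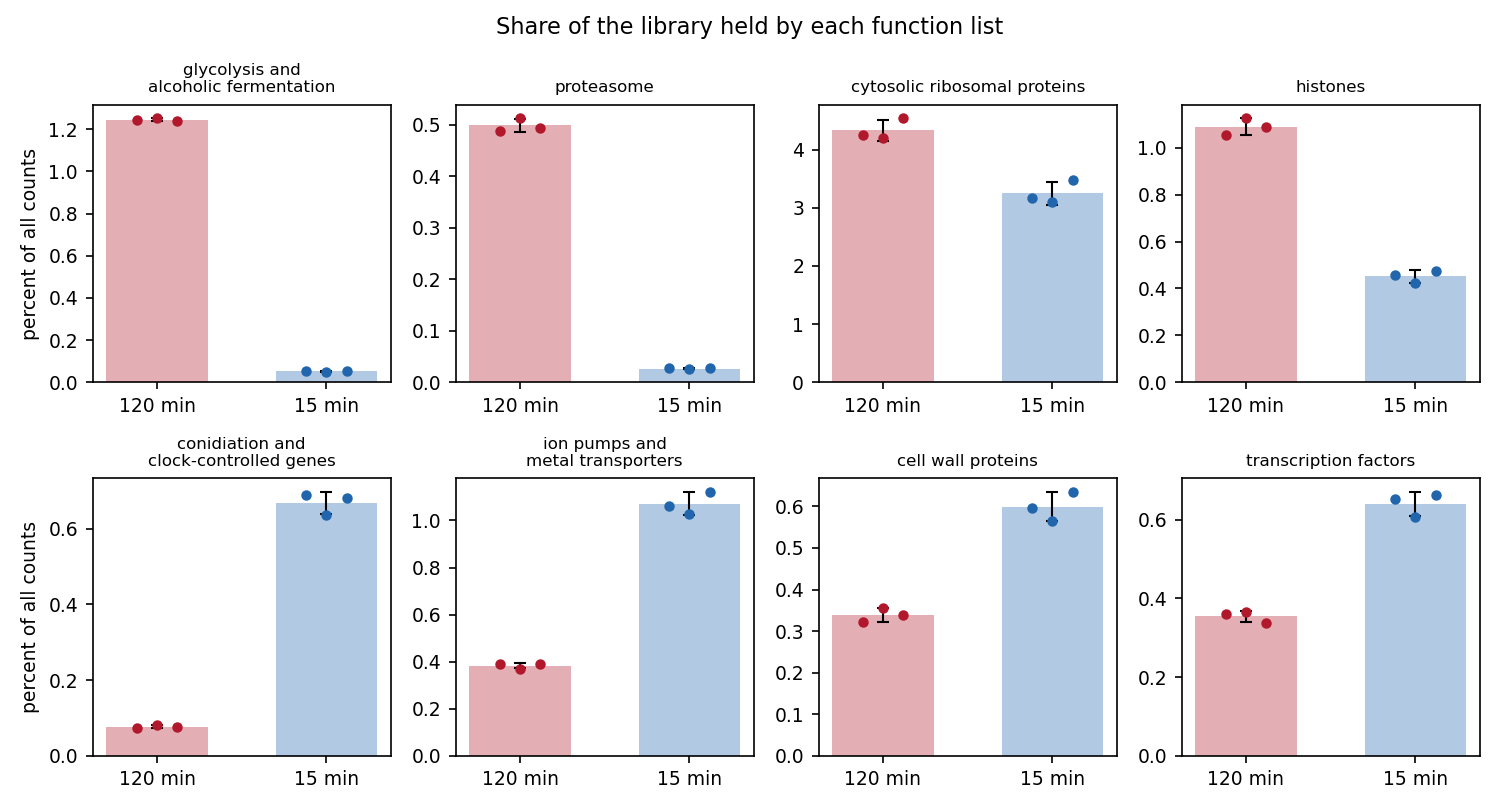
Share of all counts held by 8 function lists in each library, with 120 min (red) left of 15 min (blue). Points are the 3 libraries, bars their mean, and whiskers 1 SD, each panel having its own vertical axis starting at 0. Glycolysis and fermentation held 1.24 to 1.25% of counts at 120 min, against 0.0489 to 0.0552% at 15 min, and no panel shows overlap between the stages.

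Genes for fatty acid breakdown fell in part, and those for acetate use, the glyoxylate cycle and gluconeogenesis went both ways. Of 5 genes of fatty acid oxidation, 3 fell and none rose, against 16.8% and 21.1% of all tested genes. The acyl-CoA dehydrogenase gene acd-3, for the first step of beta-oxidation, had 5.59, 5.16 and 4.89 CPM at 120 min and 34.0, 34.3 and 31.7 CPM at 15 min (log2 fold change -2.68 ± 0.09 SE, adjusted p = 2.50e-10). The gene acd-1 had 5.57, 4.99 and 3.74 CPM at 120 min and 23.1, 22.3 and 19.6 CPM at 15 min (log2 fold change -2.19 ± 0.13 SE, adjusted p = 3.12e-07). Of 6 genes in the other group, 2 fell and 2 rose, against the same 16.8% and 21.1%. Phosphoenolpyruvate carboxykinase, the entry to gluconeogenesis, is encoded by acu-6 (NCU09873, chromosome VI, 1824832-1828327), which had 0.665, 0.581 and 0.652 CPM in the 120 min libraries, against 25.8, 27.3 and 25.4 CPM in the 15 min libraries (log2 fold change -5.37 ± 0.27 SE, adjusted p = 1.46e-09). Fructose bisphosphatase (fbp-1) had 1.18, 1.39 and 1.45 CPM at 120 min and 7.40, 7.36 and 7.32 CPM at 15 min (log2 fold change -2.46 ± 0.13 SE, adjusted p = 5.16e-08). Acetyl-CoA synthetase rose: acu-5 had 276, 255 and 283 CPM in the 120 min libraries, against 26.3, 25.1 and 25.1 CPM in the 15 min libraries (log2 fold change 3.41 ± 0.06 SE, adjusted p = 8.66e-14). The other riser, acu-8, had 182, 172 and 186 CPM at 120 min and 84.3, 83.4 and 82.8 CPM at 15 min (log2 fold change 1.11 ± 0.06 SE, adjusted p = 3.36e-02), and its call over 2-fold was lost with upper-quartile scaling, with DESeq2, and without replicate 3 at 15 min or replicate 1 or 3 at 120 min. The glyoxylate cycle gene acu-3, for isocitrate lyase, passed only the test against no change (log2 fold change -0.29 ± 0.06 SE, adjusted p against no change = 9.44e-04). Trehalase splits the storage sugar trehalose, and its gene tre-1, named after its value was seen, had 0.483, 0.581 and 0.561 CPM at 120 min and 8.94, 8.97 and 8.94 CPM at 15 min (log2 fold change -4.04 ± 0.16 SE, adjusted p = 2.93e-10).

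All 4 catalase genes fell, while 3 other genes of oxidative stress defence rose. The catalase gene cat-3 had 1.42, 1.16 and 0.822 CPM in the 120 min libraries, against 21.8, 21.2 and 23.5 CPM in the 15 min libraries (log2 fold change -4.29 ± 0.18 SE, adjusted p = 3.10e-10). The catalase-peroxidase gene cat-2 had 3.05, 2.25 and 1.62 CPM at 120 min and 14.5, 16.5 and 16.1 CPM at 15 min (log2 fold change -2.77 ± 0.20 SE, adjusted p = 5.20e-07). Copper-zinc superoxide dismutase (sod-1) had 429.9, 444 and 413 CPM in the 120 min libraries, against 66.5, 69.5 and 72.1 CPM in the 15 min libraries (log2 fold change 2.63 ± 0.05 SE, adjusted p = 7.17e-13). Thioredoxin (trx) had 76.5, 78.3 and 73.5 CPM at 120 min and 13.7, 13.9 and 14.1 CPM at 15 min (log2 fold change 2.45 ± 0.06 SE, adjusted p = 1.85e-11). Over 11 genes, 5 fell and 3 rose, against 16.8% and 21.1% of all tested genes, so the list had no single direction.

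Respiratory complex I, the proton-pumping NADH dehydrogenase, was lower in most of its genes. Of these 30 genes, 27 were lower against no change and 14 fell over 2-fold, while acp-1, the acyl carrier protein, was the 1 gene higher against no change (log2 fold change 0.20 ± 0.08 SE, adjusted p against no change = 3.82e-02). The median was -1.17 relative to all tested genes, of which 39.6% were lower against no change and 16.8% fell over 2-fold. The subunit gene nuo14.8 had 3.22, 2.75 and 2.97 CPM in the 120 min libraries, against 50.7, 46.3 and 46.8 CPM in the 15 min libraries (log2 fold change -4.01 ± 0.09 SE, adjusted p = 6.40e-13). The gene nuo17.8 had 10.8, 10.5 and 10.998 CPM at 120 min and 63.2, 60.97 and 59.8 CPM at 15 min (log2 fold change -2.51 ± 0.08 SE, adjusted p = 2.62e-10). In contrast, none of 9 genes of complexes III and IV and cytochrome c was lower and 8 were higher against no change, 3 of them over 2-fold, and all 3 ATP synthase genes were higher against no change. Of all tested genes, 43.1% were higher against no change and 21.1% over 2-fold. With upper-quartile scaling 6 of the 9 genes of complexes III and IV and cytochrome c were still higher and none lower. Of complex IV, cox-6 had 621, 609 and 609 CPM at 120 min and 195, 193 and 209.6 CPM at 15 min (log2 fold change 1.62 ± 0.09 SE, adjusted p = 3.55e-06). The gene cya-4 had 804, 776 and 778 CPM at 120 min and 295, 286 and 299 CPM at 15 min (log2 fold change 1.42 ± 0.04 SE, adjusted p = 1.21e-07). The ATP synthase gene atp-2 had 4878, 4489 and 4592 CPM in the 120 min libraries, against 2493, 2553 and 2699.5 CPM in the 15 min libraries (log2 fold change 0.85 ± 0.12 SE, adjusted p against no change = 1.64e-05). Bypass enzymes were mixed, with the alternative oxidase gene aod-1 at 5.26, 5.90 and 4.41 CPM at 120 min and 19.6, 17.7 and 17.5 CPM at 15 min (log2 fold change -1.82 ± 0.14 SE, adjusted p = 1.71e-05). The alternative dehydrogenase gene nde-3 had 20.4, 22.0 and 21.7 CPM at 120 min and 7.64, 7.21 and 8.01 CPM at 15 min (log2 fold change 1.49 ± 0.07 SE, adjusted p = 3.51e-06).

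The genes of the proteasome rose together. All 29 rose, against 21.1% of all tested genes, and their median lay at 4.28 relative to all genes. They made up 0.489 to 0.513% of counts at 120 min, against 0.0252 to 0.0272% at 15 min. Both parts of the particle rose, with all 13 core genes at log2 fold changes of 3.25 to 5.36 and all 16 genes of the regulatory cap at 2.55 to 5.53. The cap gene rpn-6 (NCU01596, chromosome II, 2997035-2999005) had 136, 137 and 134 CPM in the 120 min libraries, against 3.24, 2.52 and 3.00 CPM in the 15 min libraries (log2 fold change 5.53 ± 0.08 SE, adjusted p = 1.58e-14). The core gene pca-4 had 186, 199 and 201 CPM in the 120 min libraries, against 5.75, 3.76 and 4.71 CPM in the 15 min libraries (log2 fold change 5.36 ± 0.12 SE, adjusted p = 3.56e-13). The smallest rise, in rpn-12, had 116, 122 and 122 CPM at 120 min and 21.6, 20.3 and 19.5 CPM at 15 min (log2 fold change 2.55 ± 0.06 SE, adjusted p = 9.46e-12). No 120 min value of any of the 29 genes was below any 15 min value of the same gene, a description of genes already past the 2-fold test and not further support. Among the other leading rises were rpn-3 (5.19), rpt-3 (4.95), rpn-7 (4.90), rpn-9 (4.86) and pcb-5 (4.78, all log2 fold changes).

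One gene named with them did the opposite. The gene rpn-4 (NCU01640, chromosome II, 2859550-2861694) had 11.6, 10.4 and 10.8 CPM in the 120 min libraries, against 456, 461 and 403 CPM in the 15 min libraries (log2 fold change -5.33 ± 0.10 SE, adjusted p = 1.09e-13). In yeast, Rpn4 is not a part of the particle but a transcription factor for proteasome genes that the proteasome itself degrades, and rpn-4 was therefore not counted in the list. All 7 genes of the COP9 signalosome, a complex that resembles the proteasome cap and acts on cullin ubiquitin ligases, also rose. Of all tested genes, 21.1% rose. With upper-quartile scaling, with DESeq2 or without replicate 2 at 120 min, 5 of the 7 rose, while all 7 stayed higher against no change. The gene csn-4 had 37.6, 34.1 and 34.0 CPM in the 120 min libraries, against 2.37, 2.38 and 2.42 CPM in the 15 min libraries (log2 fold change 3.88 ± 0.06 SE, adjusted p = 7.22e-14). The gene csn-3 had 41.9, 39.2 and 39.5 CPM at 120 min and 3.85, 4.13 and 4.50 CPM at 15 min (log2 fold change 3.27 ± 0.07 SE, adjusted p = 8.30e-13), and the smallest rise was in csn-1 (log2 fold change 1.13 ± 0.06 SE, adjusted p = 1.95e-02).

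**Figure D4:**
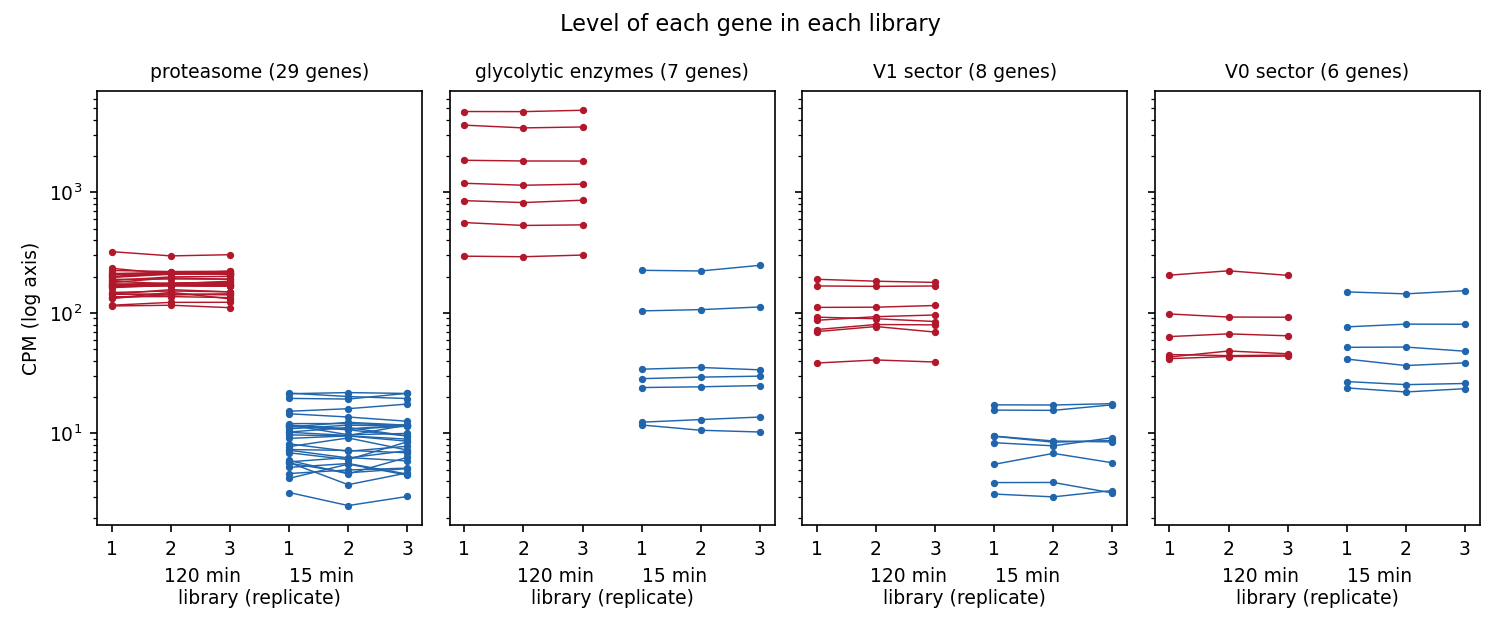
Level of each gene in each library (CPM, log axis), with the 3 libraries at 120 min in red to the left of the 3 at 15 min in blue and a line joining the libraries of 1 gene within a stage. Every gene of the proteasome, of glycolysis and of the V1 sector is higher in all 120 min libraries, with log2 fold changes of 2.55 or more, whereas the 6 genes of the V0 sector change by at most 0.95.

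Glycolysis showed the largest rise of any list, with a median of 4.72 relative to all genes. The 7 enzymes of the pathway rose, with log2 fold changes of 4.34 to 5.97, and the list made up 1.24 to 1.25% of counts at 120 min, against 0.0489 to 0.0552% at 15 min. Aldolase (fba, NCU07807, chromosome V, 220460-223264) had 1844, 1819.8 and 1816 CPM in the 120 min libraries, against 28.5, 29.3 and 29.9 CPM in the 15 min libraries (log2 fold change 5.97 ± 0.05 SE, adjusted p = 4.84e-16). Phosphoglycerate kinase (pgk) had 1189, 1145 and 1169 CPM in the 120 min libraries, against 24.0, 24.4 and 25.0 CPM in the 15 min libraries (log2 fold change 5.58 ± 0.13 SE, adjusted p = 3.77e-13). The gene emp-7, named for the Embden-Meyerhof pathway, had 3607, 3422 and 3485 CPM in the 120 min libraries, against 104, 106 and 112 CPM in the 15 min libraries (log2 fold change 5.03 ± 0.07 SE, adjusted p = 1.40e-14). No stage overlapped the other for any of these enzymes, which had already passed the 2-fold test. Glyceraldehyde phosphate dehydrogenase (gpd-1) had 4681, 4671 and 4793 CPM at 120 min and 226, 223 and 248 CPM at 15 min (log2 fold change 4.34 ± 0.07 SE, adjusted p = 3.69e-14). The gene emp-3 had 561, 531 and 537 CPM at 120 min and 12.4, 13.04 and 13.7 CPM at 15 min (log2 fold change 5.38 ± 0.06 SE, adjusted p = 4.45e-15). These levels varied little among libraries of 1 stage. The fermentation side did not follow: cfp, which encodes pyruvate decarboxylase, was lower against no change only, with 36.0, 39.8 and 46.4 CPM at 120 min and 99.8, 106 and 106 CPM at 15 min (log2 fold change -1.35 ± 0.43 SE, adjusted p against no change = 1.08e-02), and adh-1, an alcohol dehydrogenase, had 2.51, 5.73 and 9.25 CPM at 120 min and 2.36, 2.96 and 2.48 CPM at 15 min and passed neither test. These calls came from the fit to all 12 libraries. With the 6 libraries at 15 and 120 min alone, 8 of the 9 genes of the list were higher against no change. The 1 lower gene then passed the 2-fold test.

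The tricarboxylic acid cycle split by gene. Of 17 genes, 5 rose and 1 fell, against 21.1% and 16.8% of all tested genes, and the median was -0.02 relative to all genes. The largest rises were in tca-16, with 194, 188 and 197 CPM at 120 min and 31.6, 30.1 and 33.4 CPM at 15 min (log2 fold change 2.61 ± 0.05 SE, adjusted p = 1.62e-12), and in tca-9, with 1451, 1377 and 1409 CPM at 120 min and 296, 305 and 316 CPM at 15 min (log2 fold change 2.21 ± 0.10 SE, adjusted p = 7.92e-09). The citrate synthase gene cit-1 had 1031, 968 and 1009.8 CPM at 120 min and 342, 352 and 362 CPM at 15 min (log2 fold change 1.51 ± 0.09 SE, adjusted p = 1.82e-05). The 1 fall, in tca-2, was at a low level (0.106, 0.128 and 0.287 CPM at 120 min and 1.40, 1.43 and 1.48 CPM at 15 min).

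The vacuolar ATPase rose in 1 of its 2 sectors. This split was noticed in the values and then read against the subunits of the yeast enzyme, whose numbering the vma names follow. All 8 genes of the soluble V1 sector rose, with log2 fold changes of 2.71 to 4.81, and none of the 6 genes of the membrane sector V0 did, with -0.15 to 0.95. Of all tested genes, 21.1% rose. The V1 gene vma-13 had 92.2, 89.4 and 84.8 CPM in the 120 min libraries, against 3.14, 2.98 and 3.36 CPM in the 15 min libraries (log2 fold change 4.81 ± 0.09 SE, adjusted p = 8.01e-14). The gene vma-7 had 70.0, 77.1 and 69.3 CPM in the 120 min libraries, against 3.91, 3.92 and 3.21 CPM in the 15 min libraries (log2 fold change 4.29 ± 0.13 SE, adjusted p = 1.18e-11). The V0 gene vma-3, for the proton-carrying ring, had 206, 223 and 205 CPM in the 120 min libraries, against 149, 144 and 153 CPM in the 15 min libraries (log2 fold change 0.51 ± 0.05 SE, adjusted p against no change = 5.72e-07). The gene vph-1 had 98.0, 92.4 and 92.1 CPM at 120 min and 76.6, 80.7 and 80.5 CPM at 15 min. Per kb of annotated gene, the median level of the V1 genes was 44.6 CPM at 120 min, against 3.80 CPM at 15 min, and that of the V0 genes 33.3 CPM at 120 min, against 23.5 CPM at 15 min. V1 messages stood below V0 messages at 15 min and at a similar level at 120 min.

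Genes of the cytoskeleton rose in part. Of 22 cytoskeleton genes, 11 rose and none fell, against 21.1% and 16.8% of all tested genes. A group of 7 genes around actin, put together after the values were seen, rose as a whole, with log2 fold changes of 2.07 to 3.50. Fimbrin (fim), which bundles actin filaments, had 185, 177 and 176 CPM in the 120 min libraries, against 14.04, 17.1 and 16.2 CPM in the 15 min libraries (log2 fold change 3.50 ± 0.07 SE, adjusted p = 1.78e-13). The branching complex gene arp2 had 90.4, 92.0 and 87.9 CPM in the 120 min libraries, against 9.29, 10.1 and 9.89 CPM in the 15 min libraries (log2 fold change 3.21 ± 0.06 SE, adjusted p = 1.79e-13). Actin itself (act) had 977, 984 and 1174 CPM in the 120 min libraries, against 136, 134 and 138 CPM in the 15 min libraries (log2 fold change 2.94 ± 0.08 SE, adjusted p = 2.12e-11). The alpha-tubulin gene tba-1 had 403, 399 and 409.7 CPM at 120 min and 128, 129 and 131 CPM at 15 min (log2 fold change 1.64 ± 0.06 SE, adjusted p = 2.22e-08), while the beta-tubulin gene Bml passed only the test against no change (log2 fold change 0.37 ± 0.07 SE, adjusted p against no change = 4.11e-04). Of 11 dynein and kinesin genes, 3 rose, against 21.1% of all tested genes, and whether this group differed from the actin group was not tested.

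Of 18 polarity genes, 5 rose and none fell, against 21.1% and 16.8% of all tested genes, and the GTPase gene cdc42, which sets polarity in fungi, had 74.3, 78.5 and 77.8 CPM at 120 min and 69.4, 68.4 and 70.1 CPM at 15 min (log2 fold change 0.15 ± 0.04 SE, adjusted p against no change = 4.18e-03). The exchange factor gene cdc24 had 51.3, 44.6 and 46.7 CPM at 120 min and 47.2, 47.2 and 45.5 CPM at 15 min and passed neither test, and the formin gene bni1 was lower against no change (log2 fold change -0.58 ± 0.07 SE, adjusted p against no change = 3.61e-06). Of all tested genes, 43.1% were higher and 39.6% lower against no change. Against no change 12 polarity genes were higher and 2 lower, but 7 higher and 7 lower with upper-quartile scaling, under which 4 rose over 2-fold.

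Protein kinases divided into both directions. Of 86 tested, 25 rose and 8 fell, against backgrounds of 21.1% and 16.8%. With upper-quartile scaling 23 rose and 16 fell, where 1373 of all 8118 tested genes rose and 1828 fell. The catalytic subunit gene of protein kinase A pkac-1 had 77.9, 75.7 and 77.7 CPM in the 120 min libraries, against 3.14, 3.29 and 3.43 CPM in the 15 min libraries (log2 fold change 4.55 ± 0.09 SE, adjusted p = 1.48e-13). The MAP kinase gene mak-2, known for communication between germlings, had 113, 71.7 and 118 CPM in the 120 min libraries, against 5.03, 5.62 and 9.66 CPM in the 15 min libraries (log2 fold change 3.90 ± 0.30 SE, adjusted p = 3.00e-07), with replicate 2 the lowest at 120 min. Of 9 genes in the 3 MAP kinase modules, a grouping made after the values were seen, 5 rose and 1 fell, against the same 21.1% and 16.8%. The rises included the kinases mak-1 (2.14) and os-2 (2.55), and the fall was in mik-1, the top kinase of the wall integrity module (60.4, 55.2 and 58.0 CPM at 120 min and 206, 206 and 203 CPM at 15 min). The largest falls among kinases were in stk-21 (0.363, 0.425 and 0.496 CPM at 120 min and 3.02, 3.30 and 3.31 CPM at 15 min) and stk-49 (47.1, 49.0 and 50.5 CPM at 120 min and 262, 253 and 254 CPM at 15 min).

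Chaperone genes rose in part, with 4 of 11 higher over 2-fold and none lower, against 21.1% and 16.8% of all tested genes. The Hsp90 family gene hsp90a had 304, 335 and 329 CPM in the 120 min libraries, against 22.9, 24.3 and 25.0 CPM in the 15 min libraries (log2 fold change 3.75 ± 0.05 SE, adjusted p = 2.23e-14). The gene grp78, the Hsp70 of the endoplasmic reticulum, had 357, 359 and 352 CPM in the 120 min libraries, against 39.5, 38.7 and 38.8 CPM in the 15 min libraries (log2 fold change 3.19 ± 0.05 SE, adjusted p = 3.34e-14). The disaggregase gene hsp98 had 65.3, 60.9 and 60.2 CPM at 120 min and 10.7, 12.1 and 11.6 CPM at 15 min (log2 fold change 2.44 ± 0.06 SE, adjusted p = 6.14e-12). In contrast, hsp70-2, which had 4508 CPM per kb at 15 min and ranked next to tef-1 there, was lower against no change, with 9544, 9069 and 9427 CPM in the 120 min libraries, against 12582, 13062 and 12395 CPM in the 15 min libraries (log2 fold change -0.44 ± 0.07 SE, adjusted p against no change = 6.06e-05).

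Genes of peroxisome assembly rose in part, and those of mitochondrial import had no common direction. Of 20 peroxisome assembly genes, 9 rose and none fell, against 21.1% and 16.8% of all tested genes. The membrane protein receptor gene pex19 had 60.7, 61.02 and 59.7 CPM in the 120 min libraries, against 4.67, 4.72 and 4.73 CPM in the 15 min libraries (log2 fold change 3.68 ± 0.06 SE, adjusted p = 3.79e-14). The ATPase gene pex6 had 43.1, 40.1 and 39.6 CPM at 120 min and 4.57, 4.61 and 4.33 CPM at 15 min (log2 fold change 3.18 ± 0.08 SE, adjusted p = 3.42e-12). The median was 0.90 relative to all genes. Of 28 genes of mitochondrial protein import, 4 rose over 2-fold, a share below the 21.1% of all tested genes, and none fell. Against no change 12 were higher and 13 lower, where 43.1% and 39.6% of all tested genes were, and the median was -0.06. Among the 4 were genes for 2 proteins that place others in the outer membrane, mim1 and tob55. Of these mim1 had 54.4, 51.8 and 53.9 CPM in the 120 min libraries, against 3.85, 5.62 and 4.49 CPM in the 15 min libraries (log2 fold change 3.52 ± 0.10 SE, adjusted p = 1.27e-11). The gene tob55 had 53.0, 44.9 and 51.5 CPM at 120 min and 6.08, 3.58 and 5.52 CPM at 15 min (log2 fold change 3.30 ± 0.21 SE, adjusted p = 6.81e-08). The gene of the outer membrane pore, tom40, had 547, 519 and 562 CPM at 120 min and 611, 609 and 626 CPM at 15 min.

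Among 60 genes of amino acid synthesis, 16 rose and 2 fell, against 21.1% and 16.8% of all tested genes, and with upper-quartile scaling 11 rose and 3 fell. The 3 leucine genes all rose. Of these, leu-1, for isopropylmalate dehydrogenase, had 82.0, 76.9 and 77.6 CPM in the 120 min libraries, against 4.89, 3.61 and 5.23 CPM in the 15 min libraries (log2 fold change 4.11 ± 0.11 SE, adjusted p = 2.65e-12). The tryptophan gene trp-4 had 98.9, 100.2 and 94.5 CPM in the 120 min libraries, against 9.87, 8.81 and 10.01 CPM in the 15 min libraries (log2 fold change 3.36 ± 0.06 SE, adjusted p = 1.48e-13). The largest fall was in am, which encodes the glutamate dehydrogenase that fixes ammonium, with 247, 222 and 248 CPM in the 120 min libraries, against 979.7, 967 and 966 CPM in the 15 min libraries (log2 fold change -2.02 ± 0.05 SE, adjusted p = 7.51e-11), followed by cys-2 with 193, 173 and 180.1 CPM at 120 min and 408, 440.4 and 420.4 CPM at 15 min (log2 fold change -1.21 ± 0.09 SE, adjusted p = 1.18e-02). Of 16 vitamin genes, 6 rose and none fell, against the same 21.1% and 16.8%. The rises were led by the pyridoxine gene pdx-4 with 34.4, 36.3 and 36.0 CPM at 120 min and 2.03, 1.68 and 1.78 CPM at 15 min (log2 fold change 4.28 ± 0.08 SE, adjusted p = 8.23e-14). The riboflavin gene rib-5 had 41.6, 46.8 and 40.7 CPM at 120 min and 6.76, 6.45 and 8.01 CPM at 15 min (log2 fold change 2.61 ± 0.14 SE, adjusted p = 2.49e-08). Of 10 genes for purines and pyrimidines, 2 fell and 1 rose, against the same 16.8% and 21.1%. The first enzyme of each pathway fell. Of pyrimidine synthesis, pyr-3 had 1839, 1566 and 1588 CPM in the 120 min libraries, against 4809.7, 5057 and 4937 CPM in the 15 min libraries (log2 fold change -1.57 ± 0.06 SE, adjusted p = 3.21e-07). Of purine synthesis, ad-7 had 332, 322 and 330.4 CPM at 120 min and 921, 913 and 913 CPM at 15 min (log2 fold change -1.48 ± 0.05 SE, adjusted p = 4.12e-08), and ad-5, for the last steps of purine synthesis, rose (873, 805 and 786 CPM at 120 min and 303, 304 and 325 CPM at 15 min, log2 fold change 1.40 ± 0.10 SE, adjusted p = 5.70e-04).

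Histone genes were higher at 120 min, mostly by a little over 2-fold. Of 9, 7 were higher against no change (43.1% of all tested genes) and 6 of them over 2-fold (21.1%), but over 2-fold only 1 with upper-quartile scaling and 3 with DESeq2. They made up 1.05 to 1.13% of counts at 120 min, against 0.421 to 0.477% at 15 min. The core histone gene hH2B had 2837, 2940.4 and 2886 CPM in the 120 min libraries, against 1029.7, 1017 and 1091 CPM in the 15 min libraries (log2 fold change 1.47 ± 0.05 SE, adjusted p = 2.61e-07). The variant hH3v had 64.1, 66.5 and 66.9 CPM at 120 min and 26.8, 27.3 and 25.1 CPM at 15 min (log2 fold change 1.32 ± 0.05 SE, adjusted p = 6.60e-06). The genes hH4-1 and hH4-2 both encode histone H4, and reads shared by such copies make their separate values uncertain. The variants hH2Az and hH4v passed neither test.

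Of 50 chromatin regulators, 9 fell, a share near the 16.8% of all tested genes, and 3 rose, against 21.1%. The gene dim-8, part of the complex that directs DNA methylation, had 94.6, 89.4 and 82.6 CPM in the 120 min libraries, against 6.43, 7.34 and 6.92 CPM in the 15 min libraries (log2 fold change 3.69 ± 0.07 SE, adjusted p = 1.77e-13). The acetyltransferase gene hat-5 had 46.8, 45.8 and 45.7 CPM at 120 min and 9.51, 8.56 and 8.96 CPM at 15 min (log2 fold change 2.36 ± 0.05 SE, adjusted p = 3.03e-12). The remodelling gene crf5-1 had 32.6, 30.4 and 28.6 CPM at 120 min and 188, 195 and 172 CPM at 15 min (log2 fold change -2.60 ± 0.07 SE, adjusted p = 1.08e-11). The gene hcp-1 had 159, 156 and 144 CPM at 120 min and 796, 794 and 760.3 CPM at 15 min (log2 fold change -2.36 ± 0.05 SE, adjusted p = 7.57e-12). Of 39 DNA repair genes, 9 rose, a share near that of all tested genes, and 3 fell, the rises being led by mus-38 (16.9, 17.3 and 17.2 CPM at 120 min and 1.85, 1.63 and 2.11 CPM at 15 min) and mus-43 (11.3, 12.7 and 11.3 CPM at 120 min and 1.603, 1.32 and 1.43 CPM at 15 min). The excision repair gene rad16 had 17.8, 17.0 and 14.4 CPM in the 120 min libraries, against 186, 183 and 177 CPM in the 15 min libraries (log2 fold change -3.47 ± 0.09 SE, adjusted p = 2.91e-12).

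The translation genes that could be listed by symbol were abundant at both stages and shifted little. Translation genes without a symbol were in no list, so the machinery as a whole was not read. None of 11 cytosolic ribosomal protein genes and none of 8 translation factors and tRNA synthetases changed over 2-fold. Of all tested genes, 43.1% were higher and 39.6% lower against no change. Against no change, 9 ribosomal protein genes were higher and none lower, but 4 higher and 1 lower with upper-quartile scaling, so that their direction depended on the scale. They made up 4.21 to 4.54% of counts at 120 min, against 3.09 to 3.47% at 15 min. The acidic ribosomal protein gene po, with the most counts, had 6286, 6103 and 6572 CPM in the 120 min libraries, against 4246, 4244 and 4419.8 CPM in the 15 min libraries (log2 fold change 0.55 ± 0.09 SE, adjusted p against no change = 8.11e-05). The elongation factor gene tef-1 had the most CPM per kb at both stages, 12411 at 120 min and 8473 at 15 min, and 40513, 38356 and 37152 CPM in the 120 min libraries, against 25355, 25779 and 28074 CPM in the 15 min libraries (log2 fold change 0.55 ± 0.10 SE, adjusted p against no change = 1.45e-04). The adenine nucleotide carrier gene aac had 9232, 8764 and 9396 CPM in the 120 min libraries, against 7598, 7599 and 7857 CPM in the 15 min libraries, a difference whose sign turned with upper-quartile scaling (log2 fold change -0.01). Among the other genes with the most CPM per kb, NCU00979 had 5099.6, 4975 and 5395 CPM at 120 min and 3456, 3467 and 3625 CPM at 15 min, NCU09476 6479, 6684 and 7044 CPM at 120 min and 4885, 4781 and 4964 CPM at 15 min and crp-7 3545, 3706 and 3825 CPM at 120 min and 2697, 2642 and 2774 CPM at 15 min.

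Among genes without a symbol and with a mean of at least 50 CPM in the higher stage, the 3 largest rises and the 3 largest falls were as follows. NCU01511 had 98.7, 104 and 97.0 CPM in the 120 min libraries, against 0.943, 0.651 and 1.31 CPM in the 15 min libraries (log2 fold change 6.70 ± 0.15 SE, adjusted p = 2.44e-13). NCU01190 had 69.0, 74.7 and 67.0 CPM at 120 min and 0.644, 1.19 and 1.23 CPM at 15 min (log2 fold change 6.11 ± 0.17 SE, adjusted p = 2.62e-12). Next, NCU00173 had 97.7, 105 and 91.7 CPM at 120 min and 2.03, 1.71 and 2.00 CPM at 15 min (log2 fold change 5.68 ± 0.10 SE, adjusted p = 4.45e-14). NCU04537 had 0.755, 0.681 and 0.731 CPM in the 120 min libraries, against 149, 158 and 145 CPM in the 15 min libraries (log2 fold change -7.70 ± 0.18 SE, adjusted p = 3.38e-13). Likewise, NCU08856 had 0.211, 0.269 and 0.0913 CPM at 120 min and 55.2, 53.8 and 49.1 CPM at 15 min (log2 fold change -8.12 ± 0.23 SE, adjusted p = 2.35e-12). NCU09184 had 0.0604, 0 and 0 CPM in the 120 min libraries, against 67.4, 62.4 and 61.7 CPM in the 15 min libraries, so that it was at or near 0 in all libraries at 120 min. Among abundant genes, NCU03092 had 1595, 1529 and 1714 CPM in the 120 min libraries, against 6582, 6919 and 6778 CPM in the 15 min libraries (log2 fold change -2.07 ± 0.08 SE, adjusted p = 1.88e-09) and left the 10 genes with the most CPM per kb. With a symbol but outside the lists, ts had 2.01, 2.84 and 2.83 CPM at 120 min and 62.7, 60.9 and 60.96 CPM at 15 min (log2 fold change -4.58 ± 0.13 SE, adjusted p = 5.48e-12).

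Changed genes lay on every chromosome. The share that rose was 20.3 to 22.1% on the 7 nuclear chromosomes, and the share that fell was 14.6% on chromosome I and 21.5% on chromosome VII, with the other 5 between. Of 24 tested protein-coding genes of the mitochondrial genome, none rose and 6 fell, but these messages are selected poorly by oligo(dT) and took at most 0.0132% of counts. There were 9 runs of 6 or more neighbouring tested genes that moved the same way over 2-fold. The longest, with 13 genes that fell, spanned chromosome VII, 3734171-3767954 (NC12) and ended with poi-2 and cat-2. The paper places its genes up to poi-2 in a predicted secondary metabolite cluster and lists cat-2 as a neighbour. It already reports coordinated expression of most of that cluster during conidial germination. The next run, with 8 genes that rose by log2 fold changes of 1.20 to 2.85, spanned chromosome V, 4908883-4941687, and included the calmodulin gene cmd. Such runs are a description, and neighbouring genes were not tested as a unit.

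Both later stages were set against the same 15 min libraries in comparisons of their own. Relative to all genes, the proteasome list had medians of 4.28 at 120 min, 3.996 at 240 min and 3.96 at 360 min, and glycolysis 4.72, 4.81 and 4.56. Complex I had -1.17, -1.03 and -0.81. Cytosolic ribosomal proteins had 0.33, 0.26 and -0.11, and conidiation genes -3.23, -2.82 and -2.56. The mean level of eas was 4059 CPM at 15 min, 9.70 CPM at 120 min, 2.68 CPM at 240 min and 5.07 CPM at 360 min, and that of rpn-6 2.92 CPM at 15 min, 136 CPM at 120 min, 112 CPM at 240 min and 106 CPM at 360 min. The glucose transporter gene hgt-1 and acu-6 stayed under 1 CPM at all 3 later times. These comparisons share the 15 min libraries, and whether the later stages differed from 120 min was not tested here.

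**Figure D5:**
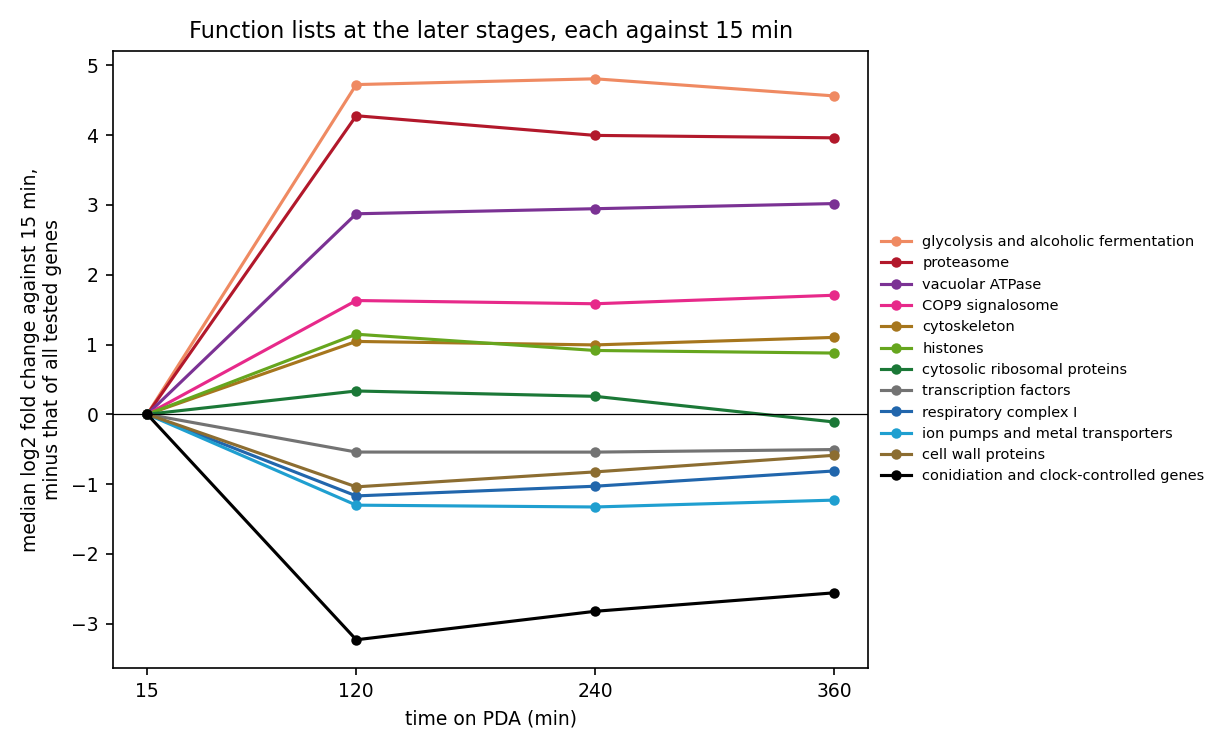
Median log2 fold change of 12 function lists against 15 min, minus that of all tested genes, over time on PDA in min (15 min is 0 by construction). All comparisons share the 15 min libraries. Glycolysis lies between 4.56 and 4.81 at the 3 later times, and conidiation genes between -3.23 and -2.56.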

How the data were processed

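For each replicate, RNA from all tissue of several plates was enriched for polyadenylated molecules with oligo(dT), and strand-specific libraries were read from both ends. The authors deposited counts per gene, made with HISAT2 2.1.0 against the OR74A v12 genome, a filter on alignment quality, and StringTie 1.3.3b, whose script estimates counts from coverage, and the submitters' processing notes also name CASAVA 1.8.2. A second deposited table holds only the authors' own comparisons of stages and was not used here. From the counts, levels were computed as counts per 1000000 counts (CPM) on TMM-scaled library sizes. Genes were kept with filterByExpr of edgeR 4.0.16 (R 4.3.3), and a quasi-likelihood model with 1 mean per stage was fitted to all 12 libraries. The contrast of 120 min with 15 min was tested against no change (glmQLFTest) and against 2-fold (glmTreat), with Benjamini-Hochberg adjustment over all 8118 tested genes and a threshold of 0.05, and fold changes are log2 of 120 min over 15 min. Each SE was derived from the test against no change, as the absolute log2 fold change divided by the square root of its F statistic. It is not a direct measure of the spread among the libraries of that gene. The test was checked on simulated data. Floors and small levels cover counting error only. Of 10592 gene IDs, 10590 matched the NC12 annotation of RefSeq, which gave coordinates and symbols but no product names here, so function lists were made from symbols, and functions known only by product names were left out. Genes named by rule were the largest changes in each direction of each list, those with the largest changes among genes with a mean of at least 50 CPM in the higher stage, those with the most CPM per kb of all genes, and the marker genes. Where no member of a list passed the 2-fold test, the rule took the member with the most counts. Further genes were named outside these rules, and only some of them are marked as chosen after their values were seen. The members and lists were chosen with earlier results of these data known. Alternatives were other scalings, DESeq2 1.42.0, no filter on low counts, a 1.5-fold threshold, the 6 libraries alone, ribosomal RNA genes left out, counts divided by gene length, a replicate block and leaving out each library. Values of some single polarity genes are not reported here.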

Additional observations from a re-analysis of the deposited data

How the results depend on the processing

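Leaving out 1 library at a time gave 3419 to 3438 genes higher and 3083 to 3152 lower against no change, and 1675 to 1698 higher and 1283 to 1343 lower over 2-fold. With upper-quartile scaling 2888 were higher and 3833 lower against no change (1373 and 1828 over 2-fold), with DESeq2 3191 and 3494 (1410 and 1311), and with library totals alone 3600 and 3067 (1786 and 1279), the median of all genes moving by -0.26 and -0.13 in the first and second of these. Against a threshold of 1.5-fold in place of 2-fold, 2123 genes fell in place of 1364, as a lower threshold must give. Without a filter on low counts, where 9565 genes were tested and the median of all genes moved by -0.044, relative medians were -1.11 for complex I, 0.036 for the tricarboxylic acid cycle, 0.51 for amino acid synthesis, -0.21 for purines and pyrimidines, -0.085 for the quinate cluster, 0.35 for polarity, -0.64 for G protein genes and 0.77 for carotenoids. With counts divided by gene length, the share at 120 min over that at 15 min was 22.5 for glycolysis in place of 24.1, 17.4 for the proteasome in place of 18.8, and 0.0949 for conidiation in place of 0.115, and the cause was not tested. Without 1 library, relative medians ranged from -3.37 to -2.95 for conidiation, -7.30 to -3.85 for mating, 0.043 to 0.14 for kinases and -0.20 to -0.10 for quinate. The sign of aac turned with upper-quartile scaling (-0.015 in place of 0.25). Replicates of the same number did not deviate together (correlations 0.03, -0.03 and -0.07), so the numbers do not pair the libraries, and the fit with a replicate block gave 3486 genes higher and 3177 lower, and 1709 and 1350 over 2-fold. With 3 libraries a stage, an exact test of a single gene cannot go below p = 0.1, so calls rest on the spread shared across genes. Levels under about 0.05 CPM are at the limit of depth.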

Other observations

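Glycoside hydrolases, enzymes that split polysaccharides, fell more often than they rose over 2-fold. Of 86 genes, 72 were tested, 18 fell and 8 rose, against 16.8% and 21.1% of all tested genes, and the median was -0.79 relative to all genes. The xylanase family gene gh10-4 had no count at 120 min, against 0.833, 0.505 and 0.604 CPM at 15 min, at least 46.2-fold lower with a floor of 3 counts over the group. The gene gh47-5 had 0.0604, 0 and 0.0783 CPM at 120 min and 7.88, 8.58 and 8.09 CPM at 15 min. The largest rises were in gh47-4, with 29.8, 31.6 and 36.7 CPM at 120 min and 5.99, 5.89 and 6.40 CPM at 15 min (log2 fold change 2.43 ± 0.08 SE, adjusted p = 2.13e-10), and gh31-2, with 83.2, 79.1 and 80.1 CPM at 120 min and 19.4, 19.4 and 19.4 CPM at 15 min (log2 fold change 2.06 ± 0.05 SE, adjusted p = 3.97e-11). Of 7 genes of the quinate cluster, which serves growth on quinic acid, 1 fell and none rose: the dehydroquinase gene qa-2 had 0.378, 0.440 and 0.365 CPM at 120 min and 1.02, 1.01 and 1.40 CPM at 15 min (log2 fold change -1.53 ± 0.26 SE, adjusted p = 2.17e-02). No gene of the cluster fell with DESeq2, or without replicate 3 at 15 min or replicate 1 or 3 at 120 min, and 2 fell with upper-quartile scaling.

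Carotenoid synthesis genes, which make the orange pigment of conidia, went both ways. Of 5, ylo-1, for the last step to neurosporaxanthin, rose (38.2, 38.2 and 38.4 CPM at 120 min and 8.66, 8.51 and 9.33 CPM at 15 min, log2 fold change 2.11 ± 0.06 SE, adjusted p = 2.35e-10), and cao-2, a carotenoid oxygenase gene, fell (159.9, 158 and 159 CPM at 120 min and 349, 359 and 348 CPM at 15 min, log2 fold change -1.15 ± 0.05 SE, adjusted p = 2.38e-03). The abundant perithecial protein gene app, a marker of sexual tissue, had 0.317, 0.213 and 0.144 CPM at 120 min and 39.6, 37.0 and 37.5 CPM at 15 min (log2 fold change -7.41 ± 0.27 SE, adjusted p = 4.00e-11). The high values of app and poi-2 in fresh conidia were seen in all 3 libraries at 15 min and in none at 120 min.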
